A study of Mus musculus with 25 samples.

Results

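The genes described are 10 genes of TGF-β and activin signaling in the mouse sciatic nerve, taken by name from the 56956 genes of the count table. They are the TGF-β ligands Tgfb1, Tgfb2 and Tgfb3, the latent TGF-β binding protein family member Ltbp2, the receptors Tgfbr1, Tgfbr2 and Tgfbr3, the inhibitory SMAD Smad7 and the activin subunits Inhba and Inhbb. No cut on a measured value set the choice, but it was made with earlier results of these data known. The 25 libraries came from RNA of whole sciatic nerves in 5 groups of mice, each sampled once at an age of 3, 5, 7, 9 and 12 weeks, and every library pooled 4 to 5 animals of both sexes. C3 mice (B6.Cg-Tg(PMP22)C3Fbas/J) are a model of Charcot-Marie-Tooth disease type 1A with 5 additional copies of human PMP22 on C57BL/6J, and WT-C3 are C57BL/6J controls. C22 mice (Tg(PMP22)C22Clh) carry 10 additional copies on FVB/NRJ, and WT-C22 are FVB/NRJ controls. The group written C3-cJun (C3-PMP22 c-JunP0Cre) carries the C3 transgene and lacks c-Jun in Schwann cells through P0Cre, and its strain is not given. No mice were treated, and 1 batch name covers every library. Copy number and strain change together between C3 and C22 and cannot be told apart, and there is no c-Jun knockout without the transgene among the libraries. No group has the C3 transgene with P0Cre alone. In C3-cJun against C3, loss of c-Jun therefore cannot be told apart from P0Cre or from a difference of strain, if any. With 1 pool per group and age, the 5 ages of a group stood in as its replicates (n = 5), so every SD and standard error (SE) contains change with age, and the p-values measure the spread between these pools.

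TGF-β ligands are secreted in a latent complex, are released at the cell surface by integrins or proteases, and bind a receptor pair of TGFBR2 and TGFBR1 that phosphorylates the receptor SMADs. Activins, dimers of the INHBA and INHBB subunits, use other receptors but the same SMADs, and Smad7 is a target that feeds back to shut the receptors off. In peripheral nerve TGF-β is known for its roles in Schwann cell development and in the response to injury, where c-Jun drives the repair state of Schwann cells.

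In C3 mice Ltbp2 and Tgfb1 were higher and Tgfb3 was lower than in WT-C3. The call of Tgfb3 in C3 was lost in 7 of the 10 fits that left out 1 library. In C22 mice Ltbp2, Tgfb2 and Tgfbr1 were higher and Tgfb3 was lower than in WT-C22. In C3-cJun 1 member, Ltbp2, was lower than in C3. This call was lost in 8 of the 10 fits that left out 1 library. A gene was called changed when its edgeR quasi-likelihood p-value, adjusted over all genes tested by the Benjamini-Hochberg method, was under 0.05. All 10 members passed the filter on low counts, as did 13993 genes in all. In C3 against WT-C3, 3 of the 10 were called, where 23.9% of all genes were, with 2 higher (12.5% of all genes) and 1 lower (11.4% of all genes). In C22 against WT-C22, 4 of the 10 were called against 42.4% of all genes, with 3 higher (21.9%) and 1 lower (20.5%). Both shares lay near the background. Scaling by library size alone moved the split of all calls from 52.1% to 71.4% higher in C3 and from 51.7% to 76.0% higher in C22, with medians of all genes of 0.076 and 0.174, and left 2 members higher and 0 lower in C3 and 3 higher and 0 lower in C22. Of the 10 changes, 1 differed between C22 and C3, that of Tgfb2, which was higher in C22. Of all genes 12.1% differed, 4.75% with a higher and 7.31% with a lower change in C22, and library size alone moved the higher share of these calls from 39.4% to 63.1%. In C3-cJun against C3 the 1 member called was lower, and 0.550% of all genes were called, 0.222% higher and 0.329% lower. In C3-cJun against WT-C3 2 members were higher and none was lower, beside 21.5% of all genes called (10.3% higher and 11.3% lower). Library size alone moved the higher share of those calls from 47.7% to 66.6%. Between the control strains 1 member was lower in WT-C22, beside 21.7% of all genes called (9.99% higher and 11.7% lower). The median log2 fold change of the 10 was -0.16 in C3, 0.013 in C22 and -0.002 in C3-cJun against C3, with 0.001, 0.005 and -0.001 for all genes. The comparisons of C3 share libraries, as do those of the controls.

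**Figure D1:**
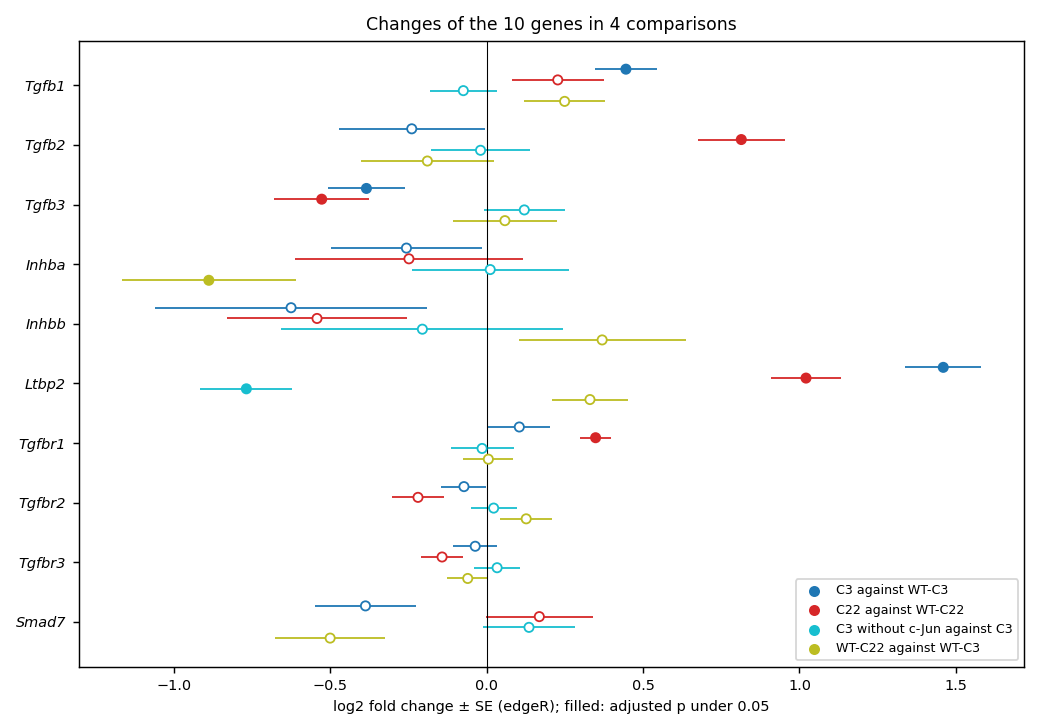
The log2 fold change (horizontal axis) of each of the 10 genes (vertical axis) in 4 comparisons, with bars of 1 SE from edgeR and filled points where the adjusted p-value is under 0.05. Ltbp2 lies at 1.46 in C3 and 1.02 in C22 and at -0.77 in C3-cJun against C3, and Tgfb2 and Tgfbr1 are filled for C22 alone.

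The libraries held 2140142 to 49072746 counts on genes, and the shallowest, of C3 at 9 weeks, still held 13 counts or more of every member. Levels are given as CPM, a gene's count over the library's total count, scaled by TMM factors that equalise libraries of unlike composition. Before TMM scaling, the 15 human genes of the transgene summed to 10670 to 13920 CPM in C3 and 10670 to 14290 in C22, which overlapped. They summed to 8229 to 14880 CPM in C3-cJun and to 5.87 CPM or less in the controls. Jun, the knockout's target, lay at 26.4 to 31.8 CPM in C3-cJun, 94.1 to 125.2 in C3, 51.45 to 72.6 in WT-C3, 38.4 to 76.7 in WT-C22 and 135.7 to 182.6 in C22. Prx, which encodes periaxin of myelinating Schwann cells, lay between 3816 and 9314 CPM over all libraries, so a marker of the labelled tissue was present in each. T cell markers (3 genes) summed to 7.85 CPM in the C22 library of 9 weeks and to 1.643 CPM or less in every other library. Within C22 that library also had the highest Tgfb1, Ltbp2, Inhbb, Smad7 and Tgfbr1 and the lowest Tgfb2, and the part of these cells was not tested. Markers of skeletal muscle (4 genes) summed to between 4.36 and 8054 CPM and those of adipocytes (4 genes) to between 293.6 and 3935 CPM. In whole nerve, fewer cells of a type and less RNA per cell cannot be told apart.

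The receptors and Tgfb3 were the most abundant of the 10 in FPKM, which is CPM per kilobase of exon. In WT-C3 Tgfbr3 had a mean of 36.2 ± 1.8 FPKM (SD, n = 5), Tgfbr2 32.8 ± 2.0, Tgfb3 15.3 ± 2.2 and Tgfbr1 5.96 ± 0.69. Inhbb followed at 3.61 ± 1.30 FPKM, Tgfb1 at 3.25 ± 0.27, Smad7 at 2.65 ± 0.45, Tgfb2 at 1.40 ± 0.47, Ltbp2 at 1.27 ± 0.20 and Inhba at 0.898 ± 0.142. The ranges of Inhbb, Tgfb1 and Smad7 overlapped each other, as did those of Tgfb2 and Ltbp2, so their order was not separated. Nor were Tgfbr2 and Tgfbr3 apart in WT-C3. The first 3 places were held by Tgfbr3, Tgfbr2 and Tgfb3 in all 5 groups, with the mean of Tgfbr2 above that of Tgfbr3 in WT-C22, where they overlapped. Inhba had the lowest mean of the 10 in every group, but its range overlapped those of Tgfb2 and Ltbp2 in WT-C3 and that of Tgfb2 in C3, and Ltbp2 moved from place 9 in WT-C3 (1.27 FPKM) to place 6 in C3 (3.51 ± 0.40 FPKM).

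**Figure D2:**
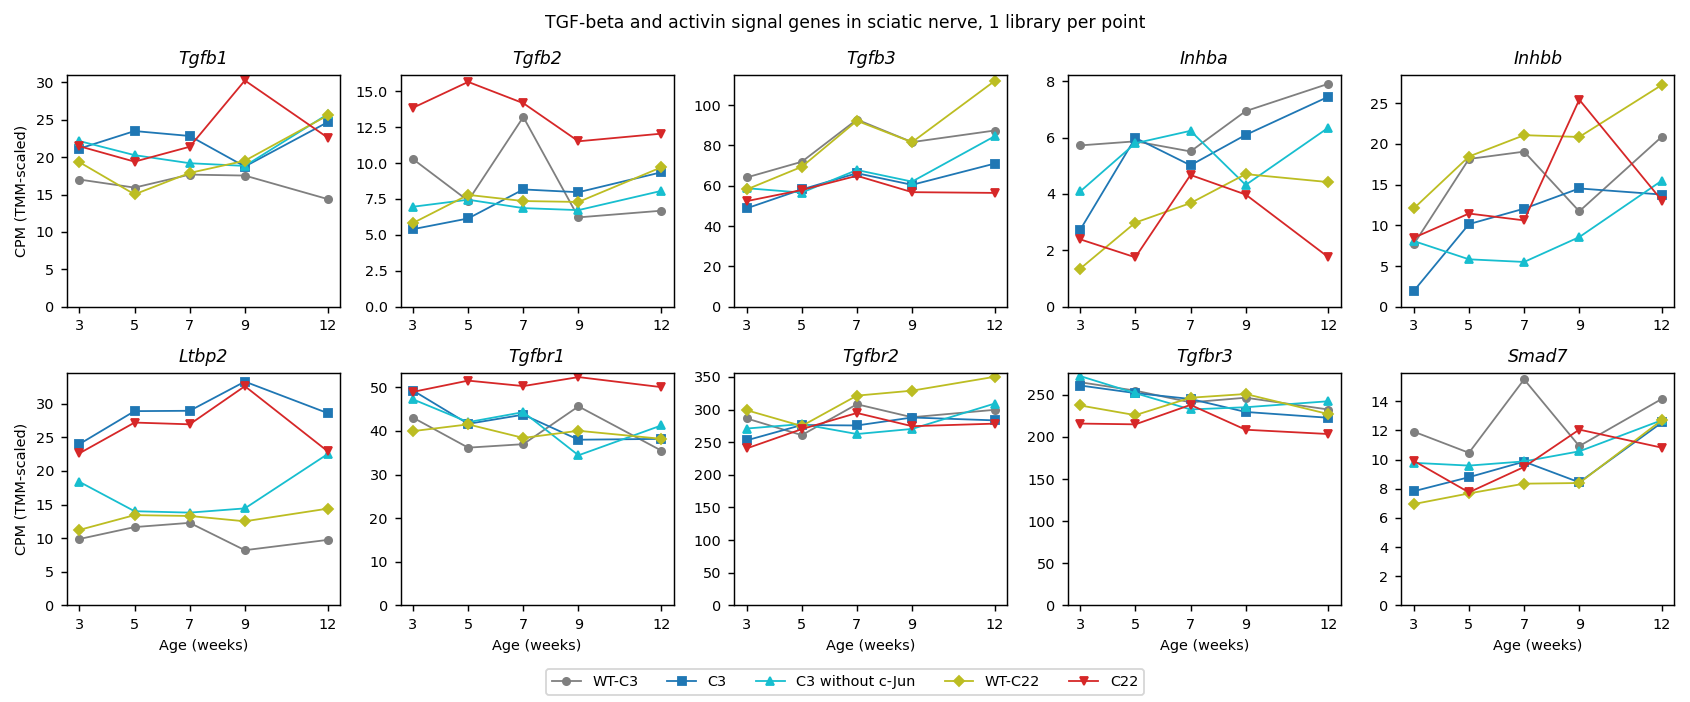
TMM-scaled CPM (vertical axes, starting at 0) of the 10 genes against age in weeks (horizontal axes), with 1 library per point and 1 line per group. The C3 and C22 lines of Ltbp2 lie at 22.6 to 33.3 CPM, above the controls at 8.21 to 14.4 CPM, at all ages, and the C22 lines of Tgfb2 and Tgfbr1 lie above WT-C22 at all ages.

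Ltbp2 encodes an extracellular matrix protein of the latent TGF-β binding protein family. It associates with fibrillin microfibrils and, unlike its relatives, is not known to bind latent TGF-β. The gene lies on the minus strand of chromosome 12 from 84829986 to 84923306 (GRCm39). From 3 to 12 weeks it had 9.88, 11.65, 12.3, 8.21 and 9.75 CPM in WT-C3, and 24.0, 28.9, 28.9, 33.3 and 28.6 CPM in C3. The groups did not overlap, and C3 was higher at 5 of 5 ages. The log2 fold change was 1.46 ± 0.12 (SE), a 2.75-fold rise with an adjusted p-value of 3.68e-05. In WT-C22 the same ages gave 11.2, 13.4, 13.3, 12.5 and 14.4 CPM, and in C22 22.6, 27.2, 26.9, 32.6 and 22.9 CPM. Here too the groups were apart, with a log2 fold change of 1.02 ± 0.11 and an adjusted p-value of 2.86e-05. Both rises were called under each of the 17 alternatives tried for them. The change in C22 minus that in C3 was -0.455 ± 0.167 on the log2 scale, which did not pass (adjusted p = 0.0838), and it passed without the C22 library of 9 weeks (-0.54, adjusted p = 0.0295). Between the controls Ltbp2 was at 0.33 ± 0.12 in WT-C22 against WT-C3, higher at 5 of 5 ages with overlapping ranges (adjusted p = 0.0735). It passed by DESeq2 (0.34, adjusted p = 0.0490), without WT-C3 of 7 weeks (0.40, adjusted p = 0.0456) and without WT-C22 of 3 weeks (0.38, adjusted p = 0.04935).

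In C3-cJun the 5 ages had 18.4, 14.0, 13.8, 14.4 and 22.5 CPM of Ltbp2. Each library was below all libraries of C3 and above all of WT-C3. Against C3 the log2 fold change was -0.77 ± 0.15 with an adjusted p-value of 0.042, and against WT-C3 it was 0.69 ± 0.16 with an adjusted p-value of 0.00919. The call against C3 held under the 7 other scalings, filters and tests (adjusted p of 2.98e-04 to 0.045), but it was lost when any single library other than C3 at 3 weeks or C3-cJun at 12 weeks was left out (adjusted p of 0.063 to 0.1385, log2 fold change of -0.80 to -0.71). Jun itself had a log2 fold change of -1.90 ± 0.09 in the same comparison (adjusted p = 7.29e-07), 0.905 ± 0.104 in C3 against WT-C3 and 1.41 ± 0.16 in C22 against WT-C22. The change of Jun in C22 minus that in C3 was 0.49 ± 0.20, which did not pass (adjusted p = 0.1245). The markers of repair or immature Schwann cells (7 genes) summed to 123 to 161.8 CPM in WT-C3, 289.6 to 389.6 in C3, 195.9 to 230.7 in C3-cJun, 139.2 to 185.3 in WT-C22 and 172.9 to 258 in C22. All 5 of these markers that could be tested were higher in C3, and Gdnf and Olig1 were too low to be tested. In C22 3 of the 5 were higher and 1 was lower. In C3-cJun against C3 edgeR called 1, which was lower, with 4 of the 5 at an unadjusted p under 0.05. There DESeq2 called 4, and the median log2 fold change of the 5 was -0.579. Between the groups WT-C3, C3 and C3-cJun this sum moved with Ltbp2, but within groups it did not always. The C3-cJun library of 12 weeks had the highest Ltbp2 (22.5 CPM) and the lowest sum (195.9 CPM) of its group. The C22 library of 9 weeks likewise had the highest Ltbp2 (32.6 CPM) and the lowest sum (172.9 CPM) of C22. The part of these markers' cells in the result was not tested.

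**Figure D3:**
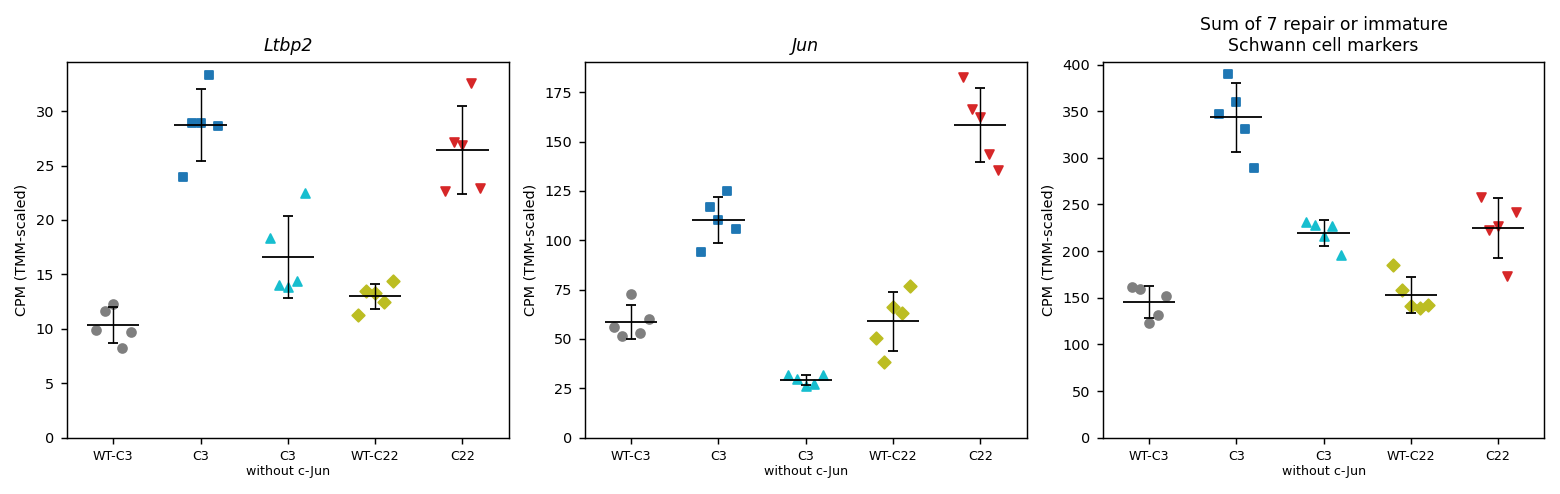
CPM (vertical axes, starting at 0) of Ltbp2, of Jun and of the summed markers of repair or immature Schwann cells in the 5 groups, with 1 point per library in order of age and the mean with SD as black lines. Ltbp2 in C3-cJun (13.8 to 22.5 CPM) lies between WT-C3 (8.21 to 12.3 CPM) and C3 (24.0 to 33.3 CPM), while Jun in C3-cJun lies below every other group.

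The letters upstream of the members that rose without overlap in C22 are shown because AP-1, the factor that c-Jun is part of, and the SMADs bind known short motifs. Capitals mark the SMAD box CAGAC or, on the other strand, GTCTG, in the 250 bases before the annotated start. The sequences are those of the GRCm39 assembly, read along the strand of each gene.
Ltbp2, chr12:84923307-84923556, minus strand: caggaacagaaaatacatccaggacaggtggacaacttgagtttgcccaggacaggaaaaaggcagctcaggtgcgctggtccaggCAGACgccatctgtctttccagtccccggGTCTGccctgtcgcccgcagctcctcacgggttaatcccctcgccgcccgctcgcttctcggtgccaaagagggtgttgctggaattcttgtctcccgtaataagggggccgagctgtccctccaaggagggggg
Tgfb2, chr1:186438295-186438544, minus strand: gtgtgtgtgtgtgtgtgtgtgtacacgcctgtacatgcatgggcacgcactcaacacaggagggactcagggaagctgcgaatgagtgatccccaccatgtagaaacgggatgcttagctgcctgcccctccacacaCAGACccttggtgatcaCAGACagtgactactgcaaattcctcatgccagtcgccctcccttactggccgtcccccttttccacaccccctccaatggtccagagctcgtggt
Tgfbr1, chr4:47352884-47353133, plus strand: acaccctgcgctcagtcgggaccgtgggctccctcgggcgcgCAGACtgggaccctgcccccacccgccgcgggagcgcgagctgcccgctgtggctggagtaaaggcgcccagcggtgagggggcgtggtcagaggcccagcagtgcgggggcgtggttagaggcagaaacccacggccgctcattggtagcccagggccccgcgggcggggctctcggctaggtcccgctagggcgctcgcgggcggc
The Ltbp2 window held 2 SMAD boxes, 164 and 135 bases before the start, that of Tgfb2 held 2 and that of Tgfbr1 held 1. Of the other members Tgfbr2 held 2, and 41.4% of the 21667 mouse promoter windows of this length held at least 1 on either strand. The AP-1 motif TGANTCA was in none of the 10 windows and in 6.18% of all windows. The palindrome GTCTAGAC was in 0.24% of all windows and, among the members, in that of Smad7. The SMAD box is short and frequent, and these matches only describe the windows.

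Tgfb1, the ligand best known from immune cells and fibrosis, lies on chromosome 7 (25386390 to 25404506, plus strand). It had 17.0, 15.9, 17.7, 17.5 and 14.4 CPM in WT-C3 and 21.1, 23.5, 22.8, 18.75 and 24.7 CPM in C3. C3 was higher at all ages without overlap, with a log2 fold change of 0.445 ± 0.098 and an adjusted p-value of 0.0075, and the call held without each library in turn. In C3-cJun it had 22.15, 20.3, 19.2, 18.8 and 25.7 CPM. These overlapped C3 (log2 fold change of -0.075 ± 0.108, adjusted p = 0.942) and lay above WT-C3 (0.365 ± 0.103, adjusted p = 0.0245). The last call was lost without WT-C3 of 5 weeks (adjusted p = 0.0556) or of 12 weeks (adjusted p = 0.0591). In WT-C22 Tgfb1 had 19.3, 15.0, 17.9, 19.5 and 25.6 CPM and in C22 21.5, 19.4, 21.4, 30.25 and 22.6 CPM, which overlapped (log2 fold change of 0.23 ± 0.15, adjusted p = 0.2375). That the change was called in C3 and not in C22 does not separate the models, since their difference was -0.23 ± 0.18 (adjusted p = 0.484). The macrophage markers (7 genes), of cells that are a known source of this ligand, summed to 232.4 to 409 CPM in WT-C3 and 245.6 to 327.8 CPM in C3, and edgeR called none of the 7 (1 had an unadjusted p under 0.05, and DESeq2 called 1).

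Tgfb2, a ligand with major roles in development, separated the models. The gene lies on chromosome 1 (186354985 to 186438294, minus strand). In WT-C22 it had 5.83, 7.78, 7.35, 7.29 and 9.70 CPM and in C22 13.8, 15.6, 14.2, 11.5 and 12.0 CPM. C22 was higher at 5 of 5 ages without overlap, with a log2 fold change of 0.81 ± 0.14, a 1.76-fold rise, and an adjusted p-value of 7.61e-04. WT-C3 had 10.3, 7.37, 13.2, 6.22 and 6.68 CPM, C3 5.398, 6.14, 8.16, 7.97 and 9.35 CPM, and C3-cJun 6.96, 7.45, 6.86, 6.72 and 8.06 CPM. These 3 groups overlapped, and the log2 fold change in C3 was -0.24 ± 0.23 (adjusted p = 0.487). The change in C22 exceeded that in C3 by 1.04 ± 0.28 on the log2 scale (adjusted p = 0.0164), and this held without each of the 20 libraries in turn (adjusted p of 0.00795 to 0.0366).

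Tgfb3, the most abundant of the 3 ligands in this tissue, lies on chromosome 12 (86102756 to 86126301, minus strand). WT-C3 had 64.1, 71.9, 92.8, 81.65 and 87.4 CPM and C3 48.8, 58.2, 66.2, 60.5 and 71.0 CPM. C3 was lower at each of the 5 ages, although the ranges touched between 64.1 and 71.0 CPM, and the log2 fold change was -0.385 ± 0.124 (adjusted p = 0.0414). This call was lost without any 1 of the C3 libraries of 3, 5, 7 or 9 weeks or the WT-C3 libraries of 7, 9 or 12 weeks (adjusted p of 0.0557 to 0.0985), with scaling by library size alone (adjusted p = 0.1208) and with no filter on low counts (adjusted p = 0.0545). In WT-C22 it had 58.2, 69.4, 92.2, 81.6 and 112 CPM and in C22 52.4, 57.9, 65.0, 56.8 and 56.5 CPM. C22 was lower at each age, most at 12 weeks, with a log2 fold change of -0.53 ± 0.15 (adjusted p = 0.0152), and the call was lost with scaling by library size alone (-0.365, adjusted p = 0.0824), where the median of all genes lay at 0.174. C3-cJun had 58.8, 56.6, 67.8, 62.1 and 84.6 CPM, which overlapped C3 and WT-C3 and was called against neither (adjusted p of 0.905 and 0.149). Without C3-cJun of 12 weeks it was lower than WT-C3 (-0.38, adjusted p = 0.0294). The perineurial markers (3 genes) moved with Tgfb3, at 501.9 to 726.2 CPM in WT-C3 against 365.8 to 441.2 in C3 and 440.5 to 645 in WT-C22 against 275.3 to 355.8 in C22. All 3 were called lower in both models. The pericyte markers (4 genes) also moved with Tgfb3, at 407.7 to 463.1 CPM in WT-C3 against 322.1 to 396.7 in C3 and 456.7 to 483 in WT-C22 against 283.1 to 358.5 in C22, with 2 of 4 lower in C3 and 4 of 4 in C22. Myelinating Schwann cell markers (5 genes) summed to 22190 to 31350 CPM in WT-C3 and 17260 to 24720 in C3, which overlapped, and to 19960 to 34860 in WT-C22 and 11000 to 15820 in C22, which did not. The part of these cells in the result was not tested.

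As shares of the 3 ligands per exon length, Tgfb3 took a smaller part in both models than in their controls. Tgfb3 made up 76.5% ± 3.6 (SD, n = 5) in WT-C3, 67.7% ± 1.9 in C3 and 70.2% ± 2.5 in C3-cJun, and 75.5% ± 3.2 in WT-C22 against 62.4% ± 2.8 in C22. The ranges of model and control did not overlap for either model. Tgfb1 took 16.5% ± 2.2 in WT-C3 and 25.5% ± 2.7 in C3, and 18.6% ± 3.2 in WT-C22 and 25.5% ± 4.0 in C22, and the latter pair overlapped. Tgfb2 took 5.87% ± 0.72 in WT-C22 and 12.15% ± 1.79 in C22 and lay at 7.02% ± 2.13 in WT-C3 and 6.82% ± 0.84 in C3. These shares describe RNA and restate the single genes' levels.

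**Figure D4:**
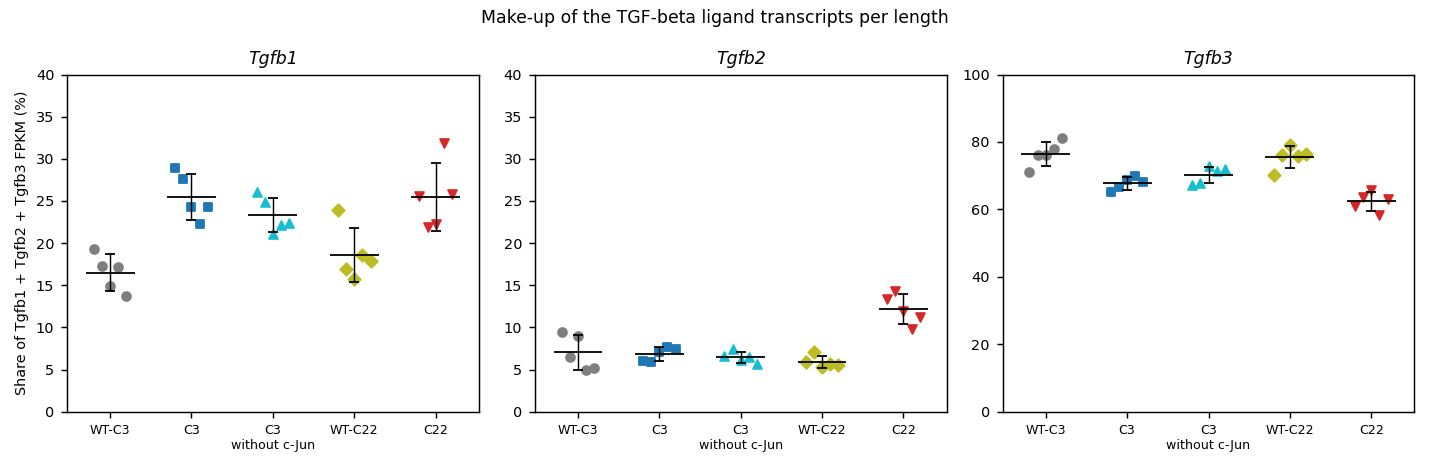
Share of each TGF-β ligand in the summed FPKM of Tgfb1, Tgfb2 and Tgfb3 in percent (vertical axes, 0 to 40 for the first 2 panels and 0 to 100 for Tgfb3) in the 5 groups, with 1 point per library in order of age and the mean with SD as black lines. The Tgfb2 share of C22 (9.84% to 14.35%) lies above all other groups, and the Tgfb3 share of C3 and C22 lies below that of the controls.

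Among the receptors, Tgfbr1, the signaling kinase of the pair, changed in C22. The gene lies on chromosome 4 (47353134 to 47414931, plus strand). WT-C22 had 39.9, 41.5, 38.4, 40.02 and 38.2 CPM and C22 48.9, 51.5, 50.3, 52.3 and 50.02 CPM. The groups were apart, and both were narrow, with a log2 fold change of 0.348 ± 0.050, a 1.27-fold rise, and an adjusted p-value of 2.34e-04. WT-C3 had 43.0, 36.15, 36.95, 45.6 and 35.5 CPM, C3 49.2, 41.6, 43.7, 38.0 and 38.2 CPM and C3-cJun 47.2, 42.0, 44.3, 34.4 and 41.2 CPM. They overlapped, with a log2 fold change of 0.10 ± 0.10 in C3 (adjusted p = 0.481) and -0.015 ± 0.101 in C3-cJun against C3. The difference between the models, 0.23 ± 0.11, did not pass (adjusted p = 0.2128), and it passed with scaling by library size alone (0.34, adjusted p = 0.0314), under which the median of all genes was 0.082.

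Tgfbr2, which binds the ligand (chromosome 9, 115913361 to 116004800, minus strand), had 240.4 to 294.7 CPM in C22 and 274.8 to 350.2 CPM in WT-C22. C22 was lower at each of the 5 ages, but the change of -0.22 ± 0.08 was just short of the threshold (adjusted p = 0.0521). It passed without C22 of 7 weeks (-0.25, adjusted p = 0.04995) or WT-C22 of 5 weeks (-0.26, adjusted p = 0.0215), and under 4 other settings. In C3 it had 252.8 to 287.8 CPM, in C3-cJun 262.5 to 309.2 and in WT-C3 260.8 to 308.1, with a log2 fold change of -0.07 ± 0.07 in C3 (adjusted p = 0.494). Tgfbr3, the co-receptor betaglycan (chromosome 5, 107249402 to 107437623, minus strand), had 203.5 to 238.1 CPM in C22 and 225.9 to 251 CPM in WT-C22. Its log2 fold change was -0.14 ± 0.07 (adjusted p = 0.1036), lower at 5 of 5 ages. It passed by DESeq2 (-0.15, adjusted p = 0.0425), and its sign turned with scaling by library size alone (0.026, adjusted p = 0.7865). In C3 it had 222.8 to 261.1 CPM and in WT-C3 232.6 to 265 CPM, a log2 fold change of -0.04 ± 0.07 (adjusted p = 0.746). Tgfbr1 took 7.84% ± 0.65 of the FPKM of the 3 receptors in WT-C22 and 10.9% ± 0.5 in C22, without overlap.

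Smad7, on chromosome 18 (75500374 to 75529006, plus strand), was called in no comparison of groups in the edgeR fit of the compared libraries with group alone. It had 11.9, 10.5, 15.5, 10.9 and 14.2 CPM in WT-C3 and 7.83, 8.79, 9.86, 8.44 and 12.5 CPM in C3. C3 was lower at each age, with overlapping ranges and a log2 fold change of -0.39 ± 0.16 (adjusted p = 0.1029). Without the C3 library of 12 weeks the change was -0.52 (adjusted p = 0.025). C3-cJun had 9.77, 9.58, 9.87, 10.6 and 12.7 CPM, above C3 at 5 of 5 ages by a log2 fold change of 0.135 ± 0.146 (adjusted p = 0.9055). WT-C22 had 6.95, 7.68, 8.35, 8.39 and 12.7 CPM and C22 9.91, 7.75, 9.49, 12.05 and 10.8 CPM, a log2 fold change of 0.17 ± 0.17 (adjusted p = 0.456). The difference of the 2 models' changes was 0.54 ± 0.24 (adjusted p = 0.1688). It passed without WT-C22 of 12 weeks (0.72, adjusted p = 0.0334). Between the control strains Smad7 was at -0.50 ± 0.18 in WT-C22 against WT-C3 (adjusted p = 0.0611), which passed without WT-C22 of 12 weeks (-0.68, adjusted p = 0.00500), by DESeq2 (adjusted p = 0.0356) and in 1 edgeR fit of all 25 libraries (adjusted p = 0.0251).

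Inhba, the activin A subunit, lies on chromosome 13 (16186373 to 16206206, plus strand) and was the member called between the control strains. WT-C3 had 5.72, 5.87, 5.51, 6.94 and 7.91 CPM and WT-C22 1.35, 2.99, 3.68, 4.70 and 4.42 CPM. The strains did not overlap, and the log2 fold change of -0.89 ± 0.28 had an adjusted p-value of 0.0398. The call was lost without any 1 of the WT-C3 libraries or without WT-C22 of 5 or 7 weeks (adjusted p of 0.0539 to 0.0953), as well as with scaling by library size alone (adjusted p = 0.0505). C22 had 2.39, 1.75, 4.67, 3.98 and 1.76 CPM, C3 2.73, 5.99, 5.02, 6.09 and 7.45 CPM and C3-cJun 4.09, 5.80, 6.24, 4.32 and 6.35 CPM. The log2 fold changes of -0.26 ± 0.24 in C3 and -0.25 ± 0.36 in C22 did not pass (adjusted p of 0.473 and 0.607), and the C3 library of 9 weeks held 13 counts of the gene. The strains also differed in markers of other cells, with all 3 mast cell markers higher in WT-C22 (43.2 to 177 CPM summed, against 19.7 to 53.1 CPM in WT-C3), and their part in the result was not tested.

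Inhbb, the activin B subunit, lies on chromosome 1 (119343193 to 119350021, minus strand) and was the more abundant subunit, at 78.55% ± 6.96 of their summed FPKM in WT-C3 and 90.9% ± 2.0 in WT-C22. WT-C3 had 7.68, 18.15, 19.05, 11.7 and 20.9 CPM, C3 1.949, 10.15, 12.05, 14.5 and 13.8 CPM, and C3-cJun 8.07, 5.83, 5.51, 8.56 and 15.5 CPM. WT-C22 had 12.1, 18.45, 21.1, 20.85 and 27.25 CPM and C22 8.47, 11.45, 10.6, 25.4 and 13.0 CPM. Each model was lower than its control at 4 of 5 ages, with C3 above WT-C3 and C22 above WT-C22 at 9 weeks. The log2 fold changes of -0.63 ± 0.44 in C3 (adjusted p = 0.322), -0.54 ± 0.29 in C22 (adjusted p = 0.1531) and -0.83 ± 0.32 in C3-cJun against WT-C3 (adjusted p = 0.0792) did not pass. Without the C3 library of 3 weeks, which stood apart, the change in C3 was -0.32 (adjusted p = 0.428), and it reached -0.80 without that of 12 weeks (adjusted p = 0.2315). The change in C22 was -0.88 without the C22 library of 9 weeks (adjusted p = 0.00728). That in C3-cJun against WT-C3 was -1.16 without C3-cJun of 12 weeks (adjusted p = 0.0108) and -1.01 without WT-C3 of 3 weeks (adjusted p = 0.0291), and it passed by DESeq2 (-0.84, adjusted p = 0.0287) and with no filter on low counts (-0.80, adjusted p = 0.0487).

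Age was tested with a natural spline of 3 degrees of freedom per group over 15298 genes. Of the 10 members, Inhbb in C3 was called (adjusted p = 0.0197), where 2.27% of all genes were. Its linear slope was 0.22 ± 0.08 log2 per week, which did not pass by itself (adjusted p = 0.121), and the call was lost without the C3 library of 3 weeks (adjusted p = 0.763). The adipocyte markers (4 genes) moved with it in C3, with sums of 293.6, 899.4, 1018, 1297 and 2370 CPM from 3 to 12 weeks, and in C22 both were highest at 9 weeks, at 2992 CPM for the markers. Their part in the result was not tested. No member was called for age in WT-C3 (0.693% of all genes), C3-cJun (3.38%), WT-C22 (2.86%) or C22 (0.752%). At an unadjusted p under 0.05, 1 member passed in WT-C3, 3 in C3-cJun, 5 in WT-C22 and 3 in C22, and DESeq2 called 1 in each, Tgfb3 in WT-C22 and Inhbb in the others. No age course was called different between C3 and WT-C3 (0.0261% of all genes) or between C22 and WT-C22 (0.0523%), with 1 member each under an unadjusted 0.05 and 0 called by DESeq2. In WT-C22 a linear slope was called for Tgfb3 (0.098 ± 0.020 log2 per week, adjusted p = 0.00569) and Smad7 (0.091 ± 0.026, adjusted p = 0.0334).

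Other genes of the pathway were taken from 6 lists with 47 genes, of which 45 could be tested. In C3, 8 were higher and 1 was lower, which is 20.0% of the 45 beside 23.9% of all genes. In C22 7 were higher and 12 were lower, which is 42.2% beside 42.4% of all genes, so neither share stood out from the background, against which the counts of the single lists are also to be read. In C3-cJun against C3 edgeR called none of the 45, with 5 at an unadjusted p under 0.05. There DESeq2 called 3 (Acvr2a, Fstl3 and Timp1), and the fit with age as block, which pairs the libraries, called 3 (Acvr2a, Fstl3 and Postn), names given after their values were seen. Other genes named are the 3 largest rises and the 3 largest falls called in each comparison.

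Among the genes that hold or release latent TGF-β (9 tested), 2 were higher in C3 and none was lower, with a median log2 fold change of 0.065, and in C22 1 was higher and 3 were lower, with a median of -0.16. Itgb8, the integrin subunit that activates latent TGF-β, rose in both. It had 294.8, 259.9, 209.1, 264.3 and 175.1 CPM in WT-C3 and 617.5, 545.6, 514, 292 and 329.8 CPM in C3, which overlapped slightly (log2 fold change of 0.94 ± 0.21, adjusted p = 0.00859). In C22 it had 600.9 to 785.9 CPM against 193.1 to 372.7 CPM in WT-C22, without overlap (1.25 ± 0.16, adjusted p = 1.09e-04). C3-cJun, at 363.6 to 596 CPM, stayed above WT-C3 (1.00 ± 0.17, adjusted p = 0.00127). Thbs1, a matrix protein that can release the ligand, fell in C22 to 64.1 to 78.9 CPM from 92.3 to 192.4 CPM in WT-C22 (-0.935 ± 0.165, adjusted p = 8.85e-04). Between the controls, Nrros, which tethers latent TGF-β on myeloid cells, was higher (0.49 ± 0.16, adjusted p = 0.046), and Itgav, the integrin partner of Itgb8, was lower (-0.38 ± 0.11, adjusted p = 0.0316) in WT-C22.

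In the activin branch (8 tested) 2 genes were higher and none lower in C3, and 2 were higher and 3 lower in C22, with medians of 0.148 and -0.20. Fst, the secreted activin antagonist follistatin, fell in C22 from a mean of 38.8 ± 8.5 to 23.4 ± 3.4 CPM (-0.74 ± 0.14, adjusted p = 0.00151). Acvr2a, an activin type II receptor, was 77.3 ± 11.3 CPM in C3-cJun and 43.5 ± 3.9 CPM in WT-C3 (0.83 ± 0.11, adjusted p = 1.84e-04). Its change in C22 was below that in C3 by 0.64 ± 0.16 on the log2 scale (adjusted p = 0.00892), and it was higher in WT-C22 than in WT-C3 by 0.36 ± 0.09 (adjusted p = 0.0129). Of the 4 other receptors none was called in C3, and 1 was lower in C22.

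The SMAD core (5 tested) had 1 gene higher in C3 and 2 lower in C22. Smad2, a receptor SMAD, was 111.8 ± 9.7 CPM in WT-C22, 83.6 ± 5.4 CPM in C22 and 72.0 ± 4.9 CPM in WT-C3. It was thus higher in WT-C22 than in WT-C3 (0.63 ± 0.08, adjusted p = 1.03e-04), and its change in C22 was below that in C3 by 0.42 ± 0.11 (adjusted p = 0.0177). The gene higher in C3, named after its value was seen, was Smad3, the other receptor SMAD of the pathway (0.37 ± 0.08, adjusted p = 0.00581). Among the feedback genes (8 tested) 2 were higher in C3, and 3 were higher and 2 lower in C22. Tgif1, a SMAD corepressor, had 14.7, 13.9, 15.0, 14.3 and 15.4 CPM in WT-C3 and 23.6, 20.3, 21.9, 27.7 and 24.0 CPM in C3, and 11.8 to 14.9 CPM in WT-C22 and 30.0 to 35.8 CPM in C22. No ranges overlapped between model and control, with log2 fold changes of 0.66 ± 0.09 (adjusted p = 5.92e-04) and 1.34 ± 0.09 (adjusted p = 4.32e-07). The change was larger in C22, by 0.66 ± 0.12 (adjusted p = 7.23e-04). Its relative Tgif2 rose in C22 from 28.2 ± 3.3 to 48.3 ± 6.0 CPM (0.77 ± 0.10, adjusted p = 1.01e-04). Ldlrad4, an inhibitor of receptor SMADs, had a lower change in C22 than in C3 (-0.63 ± 0.19, adjusted p = 0.0325).

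Of the 11 known target genes, 1 was higher and 1 lower in C3, and 1 was higher and 1 lower in C22, beside 23.9% and 42.4% of all genes called. Timp1, an inhibitor of matrix proteases, rose in C3 from 1.98 to 4.07 CPM in WT-C3 to 5.85 to 7.93 CPM (1.31 ± 0.19, adjusted p = 7.22e-04), and lay at 4.61 to 5.95 CPM in C3-cJun (0.80 ± 0.18 against WT-C3, adjusted p = 0.00752). Tagln, a smooth muscle actin-binding protein, was lower in C3 (163.9 to 301.6 CPM) than in WT-C3 (316.9 to 459.7 CPM), with a log2 fold change of -0.77 ± 0.16 (adjusted p = 0.00488). It was lower in C22 (119.3 to 235.6 CPM) than in WT-C22 (293.5 to 639.9 CPM), with -1.32 ± 0.25 (adjusted p = 0.00125), and lower in C3-cJun than in WT-C3, with -0.64 ± 0.13 (adjusted p = 0.00405). The pericyte markers, whose sums are given beside Tgfb3, moved with it as well, and their part in the result was not tested.

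**Figure D5:**
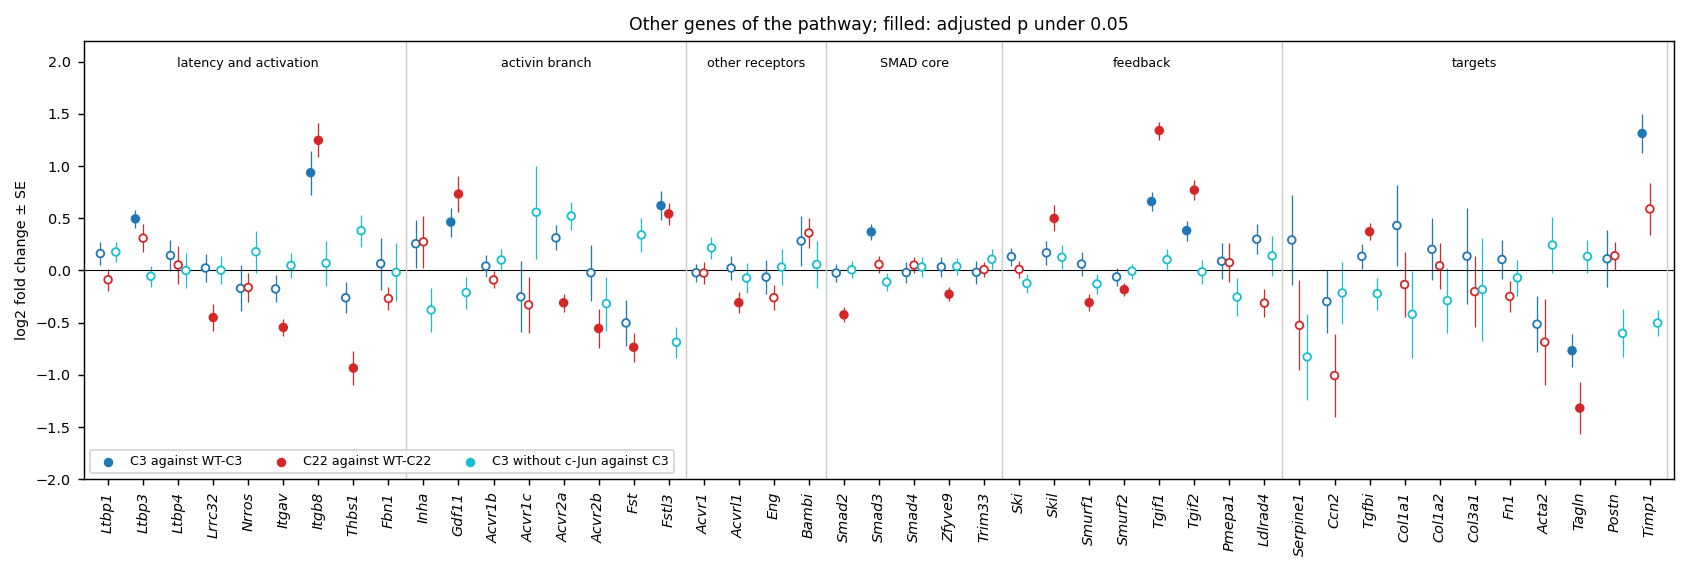
The log2 fold change with SE (vertical axis) of the other tested genes of the 6 pathway lists (horizontal axis, grouped by list) in C3 and C22 against their controls and in C3-cJun against C3, filled where the adjusted p-value is under 0.05. Itgb8, Tgif1 and Tgif2 are filled above 0 and Tagln below 0 in both models, and no point of C3-cJun against C3 is filled in this fit without the age block.

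The 25 libraries differ in strain, age and transgene, and these differences enter the correlations over them. The genes whose log2 CPM was most like that of Ltbp2 were Agap2 (Pearson r of 0.926), Nfic (0.914) and Anxa1 (0.902). For Tgfb3 they were Gas6 (0.925), Slc16a9 (0.916) and Wasf3 (0.915), for Tgfb1 Ubtd1 (0.860), Arsb (0.824) and Trib1 (0.821), and for Tgfb2 Armh4 (0.813), Slc25a3 (0.812) and Mrps2 (0.804). For Tgfbr1 they were Gnai3 (0.874), Fgd4 (0.853) and Itih5 (0.851), for Tgfbr2 Sulf2 (0.891), Pygb (0.883) and Adam15 (0.877), and for Tgfbr3 Itga6 (0.847), Arcn1 (0.838) and Adam9 (0.823). Inhba was nearest to Irgm2 (0.869), Palld (0.858) and Rtp4 (0.851), Inhbb to Vcam1 (0.894), Gstt2 (0.881) and Bhlhe40 (0.875), and Smad7 to Ptgr3 (0.828), Psme1 (0.809) and AW112010 (0.798). Among the members, Tgfb3 went with Tgfbr2 (r of 0.801) and with Inhbb (0.659), and Ltbp2 with Tgfb1 (0.685). These values describe the libraries and carry no test.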

How the data were processed

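Whole sciatic nerve RNA of pooled mice was measured in 25 poly(A) libraries. The authors trimmed reads (cutadapt 2.10), aligned them with STAR 2.7.5a to GRCm39 with the human transgene locus added, removed duplicates by molecular identifier (UMI-tools 1.1.1), counted fragments per gene of Ensembl 110 (HTSeq 0.12.4) and deposited raw counts. Fragments on no gene (8.12% to 12.1%), on several genes (1.78% to 2.04%) or with several alignments (2.76% to 3.93%) stayed out of totals. Symbols were matched for 56323 of 56941 mouse genes.

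Counts were analysed with edgeR 4.0.16 in R 4.3.3. The filter kept genes whose log2 CPM exceeded 1 in 25% of libraries (7) or more. For a comparison, TMM factors and the quasi-likelihood fit came from its own libraries, with no term beside group, and age used a spline in 1 fit of all libraries on genes kept by filterByExpr. SEs were derived from the F statistic. Printed CPM were scaled over all libraries, and FPKM divided CPM by exon length (GRCm39). DESeq2 1.42.0 was an alternative, and each library was left out in turn. The members and lists were chosen with earlier results of these data known. Genes named are the members, the 3 largest called rises and falls of the pathway lists per comparison, and the 3 genes most correlated with each member.

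The main fits did not pair libraries. Only in C3-cJun against C3 was the alternative fit with age as block read as a paired fit. There the deviations of same-age libraries from their group means correlated at each age (0.445, 0.143, 0.326, 0.288 and 0.614). The same age was the best match at 3, 9 and 12 weeks but not at 5 and 7 weeks. Between the controls it was the best match at 3, 5 and 9 weeks but not at 7 and 12 weeks. The steps were tested on simulated counts of C3 against WT-C3 with 13993 genes and a dispersion of 0.0347. Of genes changed by a log2 of 1, 93.0% were called, and of those changed by 0.5, 24.0% were. The simulation changed far fewer genes than were called in the data, so these shares do not carry over to the real comparisons. A count of 3 in a library was the limit of detection, and depth sets counting error only. A marker of myelinating Schwann cells is not reported here.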

Additional observations from a re-analysis of the deposited data

Results flagged for a closer look

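The Inhbb level of C3 at 3 weeks, 1.949 CPM from 65 counts, stood apart from the other C3 libraries, which had 10.15 to 14.5 CPM. On the log2 scale of CPM plus 0.5, its gap to the next library was 0.810 of the group's range. This was beyond Dixon's limit on that scale, the only one tried. Each of the 10 members was searched in each of the 5 groups. Chance alone marks about 1 in 20 such sets of libraries, so it would mark some of those searched. The age effect of Inhbb in C3 rests on this library.

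The change of Tgfb2 in C22 exceeded that in C3 by 1.038 on the log2 scale (edgeR interaction test, adjusted p = 0.0164). C22 was above WT-C22 at 5 of 5 ages and C3 above WT-C3 at 2 of 5. Strain and copy number cannot be told apart in this difference.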

How the results depend on the processing

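Of 1920 values of single members under alternatives, 1849 stayed on their side of the threshold, 30 lost a call, 41 gained one and none of the called values reversed. Most of the 1920 belonged to results not called in the main fit, which had no call to lose. The 30 lost calls are therefore to be read against the called results alone. The counts of members called differed as follows, and the cause was not tested. With age as replicate block there were 5 in C3 against WT-C3 (2 higher, 3 lower), 2 in the difference of C22 and C3, 4 in C3-cJun against WT-C3 and 3 between the controls. The members it added were Inhbb (-0.77, adjusted p = 0.0485) and Smad7 (-0.415, adjusted p = 0.0373) in C3, Smad7 in the difference (0.58, adjusted p = 0.0426), Tgfb3 (-0.27, adjusted p = 0.0331) and Inhbb (-0.85, adjusted p = 0.0389) in C3-cJun against WT-C3, and Inhbb (0.40, adjusted p = 0.0399) and Smad7 (-0.52, adjusted p = 0.0166) between the controls. In C22 against WT-C22 the count was 4 (3 higher, 1 lower) and went to 6 (3 higher, 3 lower) with the block, which added Inhbb (-0.60, adjusted p = 0.0345) and Tgfbr2 (-0.22, adjusted p = 0.043), and to 6 by DESeq2. It was 5 with median-ratio size factors and in 1 fit of all libraries, 3 with library size alone, and 4 to 5 with single libraries left out. In C3 against WT-C3 single libraries left out gave 2 to 4 in place of 3, with 2 for 7 of the 10. The block, as a fit with pairing of equal ages, left the 1 member called in C3-cJun against C3, Ltbp2, called (-0.78, adjusted p = 0.0239), though the count over all genes went from 77 to 273. There DESeq2 called 250 genes, all libraries in 1 fit 139 and no filter 134. In every other comparison at least 1 age had a correlation under 0.1 (lowest -0.252), and the block was not read as a paired fit there. Between the controls the correlations were 0.375, 0.667, 0.194, 0.519 and 0.060. These do not clearly set that comparison apart from C3-cJun against C3. In all comparisons the age is the only link between libraries that the labels give. With library size alone the members called were 2 in the difference of models and 0 between the controls, where DESeq2 called 3 and 1 fit of all libraries 2. Leaving out single libraries gave 1 to 2 in the difference, 0 to 1 in C3-cJun against C3, 1 to 4 in C3-cJun against WT-C3 and 0 to 2 between the controls. For age, DESeq2 called 1 member in each of WT-C3, C3-cJun, WT-C22 and C22, the linear slope 0 in C3 and 2 in WT-C22, and 2 degrees of freedom 1 in WT-C22. Leaving out libraries gave 0 to 1 for age in C3 and in C22. In the simulated counts, 24.0% of genes changed by a log2 of 0.5 were called. Far fewer genes were changed there than were called in the data, so this share does not carry over. A smaller change was called for Tgfbr1 in C22 (0.348).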
